A study of Mus musculus with 8 samples.

Results

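The genes described here are 10 genes of glutathione metabolism and of the Nrf2 antioxidant response: Nfe2l2, Keap1, Gclc, Gclm, Gss, Gsr, Gpx4, Nqo1, Hmox1 and Txnrd1. They were chosen by symbol for their part in redox defence of the lens, with earlier results of these data known. They are 10 of the 43432 gene IDs in the count table. All 10 passed the filter on low counts, as did 16241 genes in all. RNA was sequenced from mouse lenses of embryonic day 14.5 in 8 libraries, of which 4 were Mettl3 CKO and 4 were control (replicates a to d in each). CKO stands for conditional knockout, here of Mettl3, whose product is the catalytic subunit of the complex that methylates adenosines of mRNA (m6A). The labels give no Cre driver, no strain and no allele for either genotype, and no number of lenses or animals per library. Whether libraries of a genotype stem from different animals is not stated, and the p-values therefore cover the variation among these 8 libraries, some of which may be technical. Library totals lay between 19110170 and 51142336 counts in CKO lenses and between 24374038 and 56098211 in control lenses. Replicates a and b are called set 1 and replicates c and d set 2, because their sample records lie apart, and the set was a term in the test. Fiber crystallins and other markers of the lens fiber, 16 genes, summed to 158500 CPM (counts scaled to library size by TMM) or more in every library, so the labelled tissue's defining genes were abundant throughout.

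Nrf2, the product of Nfe2l2, is a transcription factor that Keap1 holds in the cytoplasm and passes to a cullin ubiquitin ligase for degradation. Oxidants and electrophiles modify cysteines of Keap1, and Nrf2 then enters the nucleus, pairs with a small Maf protein and binds antioxidant response elements near genes of glutathione synthesis, quinone reduction, heme breakdown and thioredoxin reduction. The lens holds glutathione at high concentration, and its loss accompanies many forms of cataract.

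Mettl3 stood at 13.4, 15.9, 8.11 and 12.2 CPM in CKO replicates a to d, against 28.4, 25.4, 23.8 and 21.4 CPM in control replicates a to d. Mettl3 had a log2 fold change of -1.02 (SE 0.15, edgeR quasi-likelihood adjusted p = 0.00259). Every CKO library lay under every control library, and the counts do not show whether the reads that remain cover a deleted exon.

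None of the 10 antioxidant genes changed at an adjusted p under 0.05 in CKO lenses, where 10.5% of all tested genes did (edgeR quasi-likelihood, Benjamini-Hochberg over all 16241 genes). At an unadjusted p under 0.05 there was 1, Gss, against 26.5% of all genes. DESeq2 called 1 of the 10, also Gss, beside 2468 of all 16241 genes. With limma voom none of the 10 was called, beside 1938 of 16241 genes. Fitted log2 fold changes were below 0 for 4 of the genes, beside 53.1% of all genes, and above 0 for 6, with a median of 0.02, beside -0.03 for all genes. The widest interval was that of Nqo1, the rarest of them, and for Nfe2l2, Keap1, Gclc, Gsr, Gpx4 and Txnrd1 the 95% intervals of the fold lay between 0.823 and 1.32. These intervals are single-gene ones and are not adjusted for the number of genes.

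**Figure D1:**
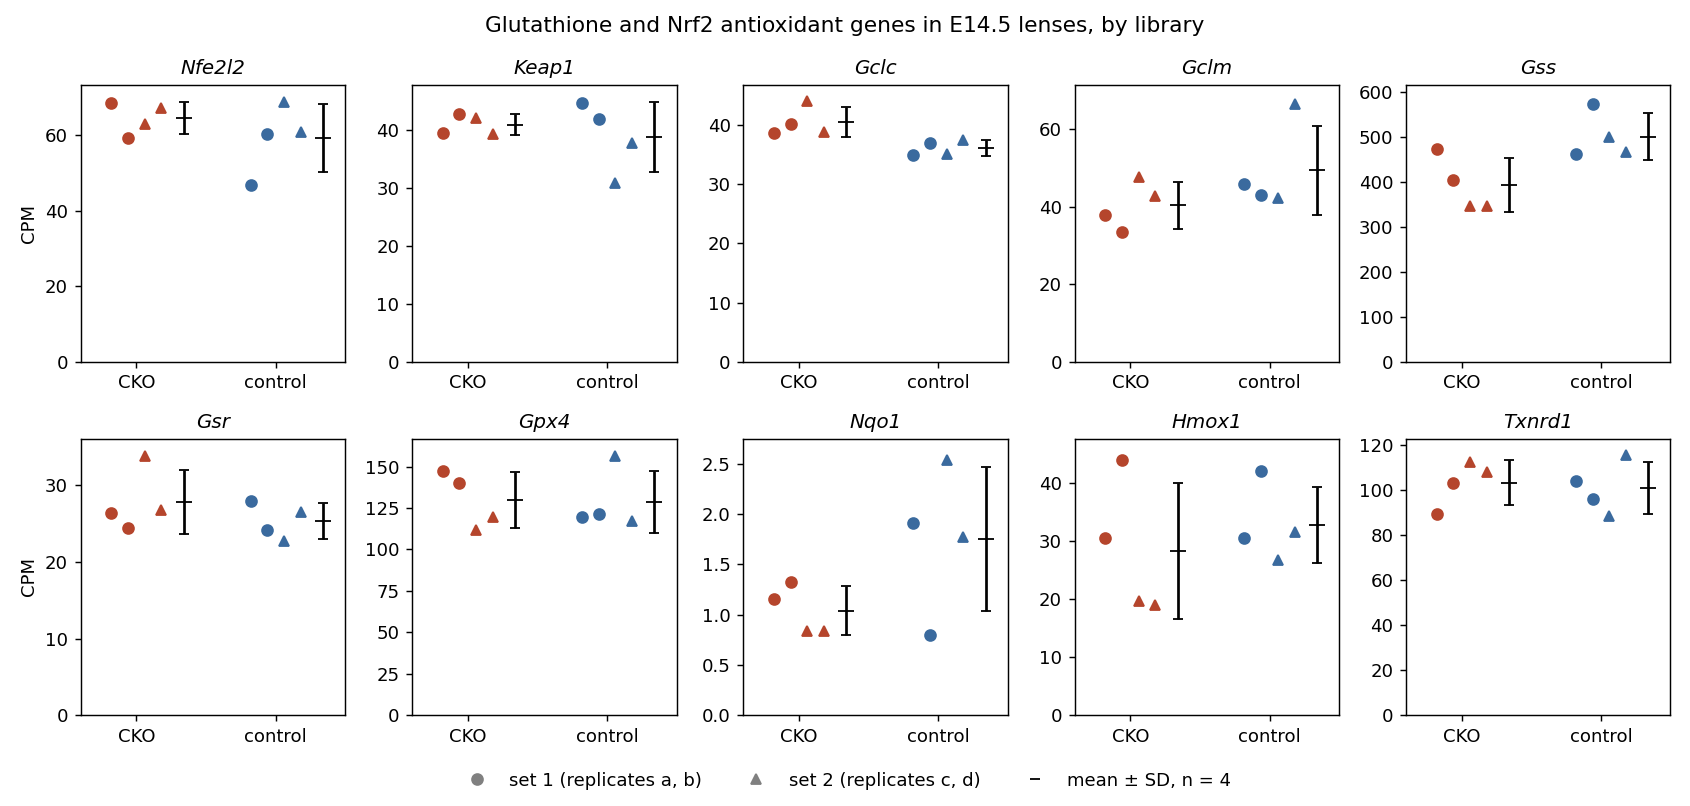
CPM of each of the 10 genes in every library, CKO left and control right of each panel, with circles for set 1, triangles for set 2 and bars for the mean ± SD of 4 libraries. The genotypes overlap in 9 panels, and in that of Gclc all CKO points lie above all control points.

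Levels per length of merged exons set the genes in order. In control lenses Gss averaged 84.6 CPM per kb ± 8.78 and Gpx4 74.7 CPM per kb ± 10.8 (SD, n = 4 each), and the ranges of these neighbours overlapped. Hmox1 (18.7 CPM per kb), Nfe2l2 (15.6 CPM per kb) and Txnrd1 (14.3 CPM per kb) followed, each overlapping the next. Then came Gclc (9.60 CPM per kb), Gsr (9.18 CPM per kb), Keap1 (8.27 CPM per kb) and Gclm (7.85 CPM per kb), which overlapped likewise, and Nqo1 at 1.13 CPM per kb stood below them all. The control level of Gss exceeded that of 97.5% of tested genes and that of Nqo1 exceeded 30.4%. With the longest transcript as the length, Gss, Gpx4 and Nqo1 kept their places and Txnrd1 came next after Gpx4, before Nfe2l2 and Hmox1.

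The sensor pair came first in the pathway. Nfe2l2 (ENSMUSG00000015839, mm10 chromosome 2, 75675513 to 75704641, minus strand) encodes Nrf2 itself. It stood at 68.5, 59.2, 62.8 and 67.1 CPM in CKO replicates a to d, against 46.9, 60.2, 68.6 and 60.9 CPM in control replicates a to d. Control a was the lowest library and the genotypes overlapped. Nfe2l2 differed by 0.13 on the log2 scale with an SE of 0.11 (adjusted p = 0.513). Set 1 alone gave 0.24 and set 2 alone 0.05.

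Keap1 (ENSMUSG00000003308, chromosome 9, 21229730 to 21239361, minus strand) encodes the inhibitor and sensor. Its values were 39.5, 42.9, 42.2 and 39.3 CPM in CKO replicates a to d, against 44.7, 42.0, 30.8 and 37.8 CPM in control replicates a to d. The CKO libraries lay close together, inside the control range. Keap1 had a log2 fold change of 0.09 with an SE of 0.11 (adjusted p = 0.653), and it was -0.06 with the trends of each library on GC content and transcript length removed. The ratio of Keap1 to Nfe2l2, each per kb, was 0.517 ± 0.0574 in CKO libraries and 0.550 ± 0.170 in control libraries (SD, n = 4 each), and the ranges overlapped.

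Glutathione is built in a pair of steps. Glutamate-cysteine ligase, a dimer of the catalytic subunit Gclc and the modifier subunit Gclm, joins glutamate to cysteine, and glutathione synthetase, the product of Gss, adds glycine. Gclc (ENSMUSG00000032350, chromosome 9, 77754535 to 77794485, plus strand) stood at 38.7, 40.2, 44.1 and 38.9 CPM in CKO replicates a to d, against 35.0, 37.0, 35.0 and 37.5 CPM in control replicates a to d. It was the 1 gene of the 10 whose genotypes did not overlap, with every CKO library above every control library, and 8.96% of all tested genes were higher in this way. None of the 10 was lower without overlap, beside 7.38% of all genes. The difference for Gclc was small, at 0.16 on the log2 scale (SE 0.09, 95% interval -0.03 to 0.36, adjusted p = 0.279), 0.11 in set 1 and 0.23 in set 2.

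Gclm (ENSMUSG00000028124, chromosome 3, 122245557 to 122270732, plus strand) was at 37.8, 33.6, 47.6 and 42.7 CPM in CKO replicates a to d, against 45.8, 43.1, 42.2 and 66.3 CPM in control replicates a to d. Control d stood above all others, and the remaining libraries of the genotypes overlapped. Gclm differed by -0.29 on the log2 scale (SE 0.13, 95% interval -0.59 to 0.00, adjusted p = 0.194). Without control c it was -0.42 and passed (adjusted p = 0.0147), and without control d it was -0.15 (adjusted p = 0.547).

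Gss (ENSMUSG00000027610, chromosome 2, 155563181 to 155592810, minus strand) had 473.0, 404.8, 345.4 and 346.9 CPM in CKO replicates a to d, against 461.5, 574.2, 500.1 and 466.8 CPM in control replicates a to d. CKO a lay within the control range and the other 3 CKO libraries lay below it. Its log2 fold change was -0.36 (SE 0.12, 95% interval -0.62 to -0.10), a fold of 0.779, with an unadjusted p of 0.0108 and an adjusted p of 0.0753. It was -0.26 in set 1 and -0.44 in set 2. Gss passed without control a (-0.45, adjusted p = 0.0458), with DESeq2 (-0.35, adjusted p = 0.0148) and with the GC and length trends removed (-0.39, adjusted p = 0.0324). Acss2, Gssos1 and Gssos2 overlap Gss on the opposite strand, where Acss2 had 3008 counts over the 8 libraries and Gss 126982. Lens fiber markers summed to 158500 to 224500 CPM in CKO libraries and 209000 to 263400 CPM in control libraries. Lens epithelium markers summed to 3360 to 3742 CPM in CKO libraries and 3332 to 4275 CPM in control libraries. The part of either in the Gss values was not tested.

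Within a library, the ratio between these transcripts does not depend on the scaling. These ratios were chosen after the values were seen and carry no test. Gclc over Gclm, each per kb, was 1.71, 1.999, 1.55 and 1.52 in CKO replicates a to d, against 1.28, 1.44, 1.39 and 0.946 in control replicates a to d. All CKO libraries lay above all control libraries. Gss over Gclc averaged 6.21 ± 1.19 in CKO libraries and 8.82 ± 0.849 in control libraries (SD, n = 4 each). Its highest CKO value, 7.78, lay just under its lowest control value, 7.92. Bach1, the gene of a repressor that competes with Nrf2, was also set over Nfe2l2, each per kb. That ratio overlapped, at 0.343 to 0.451 in CKO libraries and 0.272 to 0.370 in control libraries, as did Keap1 over Nfe2l2. Of all tested genes taken singly, 16.3% had genotypes that did not overlap. The share among ratios of gene pairs was not computed.

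**Figure D2:**
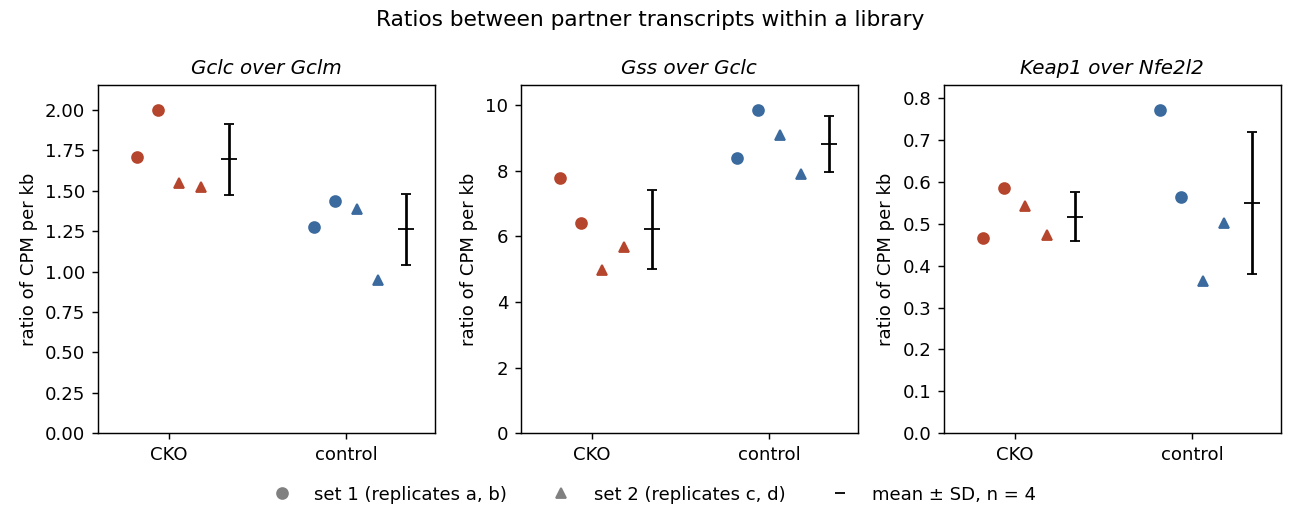
Ratios of the level per kb between partner transcripts in each library, CKO left and control right, with circles for set 1, triangles for set 2 and bars for the mean ± SD of 4 libraries. Gclc over Gclm is higher in every CKO library and Gss over Gclc lower, while Keap1 over Nfe2l2 overlaps.

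Glutathione reductase, the product of Gsr, returns oxidised glutathione to its reduced form with NADPH. Gsr (ENSMUSG00000031584, chromosome 8, 33652523 to 33698163, plus strand) stood at 26.3, 24.3, 33.8 and 26.7 CPM in CKO replicates a to d, against 27.9, 24.1, 22.7 and 26.5 CPM in control replicates a to d. CKO c was the highest library and the other values of the genotypes lay together. For Gsr the log2 fold change was 0.13 (SE 0.12, adjusted p = 0.539), -0.06 in set 1 and 0.34 in set 2.

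Gpx4 (ENSMUSG00000075706, chromosome 10, 80047166 to 80056439, plus strand) encodes the selenoenzyme that reduces lipid hydroperoxides in membranes with glutathione. It was at 147.5, 140.0, 111.7 and 119.3 CPM in CKO replicates a to d, against 119.8, 121.5, 156.6 and 117.1 CPM in control replicates a to d. CKO a, CKO b and control c were high and the other libraries lay together. For Gpx4 the log2 fold change was 0.00 (SE 0.13, 95% interval -0.28 to 0.29, adjusted p = 0.99). It was 0.23 in set 1 and -0.20 in set 2, and the interaction of genotype and set had an unadjusted p of 0.0291 and an adjusted p of 0.253 (edgeR quasi-likelihood). The fitted value was below 0 with upper quartile scaling, with the GC and length trends removed, and without CKO a, CKO b, control a, control b or control d. Reads of Gpx4-ps2, a transcribed processed pseudogene, were not analysed here, and reads shared between such copies cannot be told apart.

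The remaining genes are classical Nrf2 targets. Nqo1 (ENSMUSG00000003849, chromosome 8, 107388225 to 107403206, minus strand), which encodes a quinone reductase, was rare. It had 22, 33, 48 and 43 counts in CKO replicates a to d (1.15, 1.33, 0.843 and 0.834 CPM), against 50, 18, 104 and 94 counts in control replicates a to d (1.91, 0.794, 2.53 and 1.77 CPM). Control b was the lowest of all 8 and the other 3 control libraries lay above every CKO library. Its log2 fold change was -0.77 (SE 0.39, 95% interval -1.62 to 0.08, adjusted p = 0.235), -0.15 in set 1 and -1.31 in set 2. With a library left out it lay between -0.54 (without control c, adjusted p = 0.378) and -1.08 (without control b, adjusted p = 0.103). The 95% interval of the fold ran from 0.326 to 1.06.

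Hmox1 (ENSMUSG00000005413, chromosome 8, 75093621 to 75100589, plus strand) encodes heme oxygenase 1, which opens the heme ring and is abundant in macrophages that take up red cells. Its values were 30.5, 44.0, 19.7 and 19 CPM in CKO replicates a to d, against 30.5, 42.0, 26.7 and 31.6 CPM in control replicates a to d. Replicate b was high in both genotypes, and CKO c and CKO d were the lowest libraries. Hmox1 had a log2 fold change of -0.28 with an SE of 0.17 (adjusted p = 0.347). It was 0.02 in set 1 and -0.55 in set 2. The interaction of genotype and set had an adjusted p of 0.288 for Hmox1 (edgeR quasi-likelihood).

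Markers of other cells varied beside Hmox1. The 12 macrophage markers summed to 124.5, 132.3, 63.0 and 58.0 CPM in CKO replicates a to d, against 49.9, 56.5, 55.9 and 39.4 CPM in control replicates a to d, and no marker was at 0 in any library. Of these, 4 rose (C1qa, C1qb, C1qc and Cx3cr1, log2 fold changes 0.89 to 1.12) and none fell. The share that rose was 33.3%, beside 6.5% of all genes. Among 11 red cell markers the sum was 978.2, 4121, 447.1 and 490.4 CPM in CKO replicates a to d, against 2104, 947.5, 2237 and 586.4 CPM in control replicates a to d. None of the red cell markers passed the test. In bulk lens RNA fewer cells of a type and less RNA per cell cannot be told apart, and the part of these cells in the Hmox1 values was not tested.

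Txnrd1 (ENSMUSG00000020250, chromosome 10, 82833951 to 82897712, plus strand) encodes the cytosolic selenoenzyme that reduces thioredoxin. It stood at 89.4, 103.0, 112.4 and 108.0 CPM in CKO replicates a to d, against 103.9, 96.2, 88.6 and 115.7 CPM in control replicates a to d. The CKO values lay inside the control range. Txnrd1 differed by 0.03 on the log2 scale (SE 0.11, 95% interval -0.21 to 0.27, adjusted p = 0.904). It was -0.03 with the GC and length trends removed, -0.01 without CKO c and -0.06 without control c. Eid3, which overlaps Txnrd1 on the same strand, was not analysed here.

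Within a set, none of the 10 genes passed, where 8.92% of all genes did in set 1 and 5.78% in set 2 (separate edgeR fits of 2 against 2 libraries). The sign was the same in both sets for 5 of the 10 genes, beside 58.9% of all genes. No gene of the 16241 passed the adjusted interaction test (0%), and at an unadjusted p under 0.05 there were 2662 genes, 16.4%, of which Gpx4 and Hmox1 were among the 10.

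**Figure D3:**
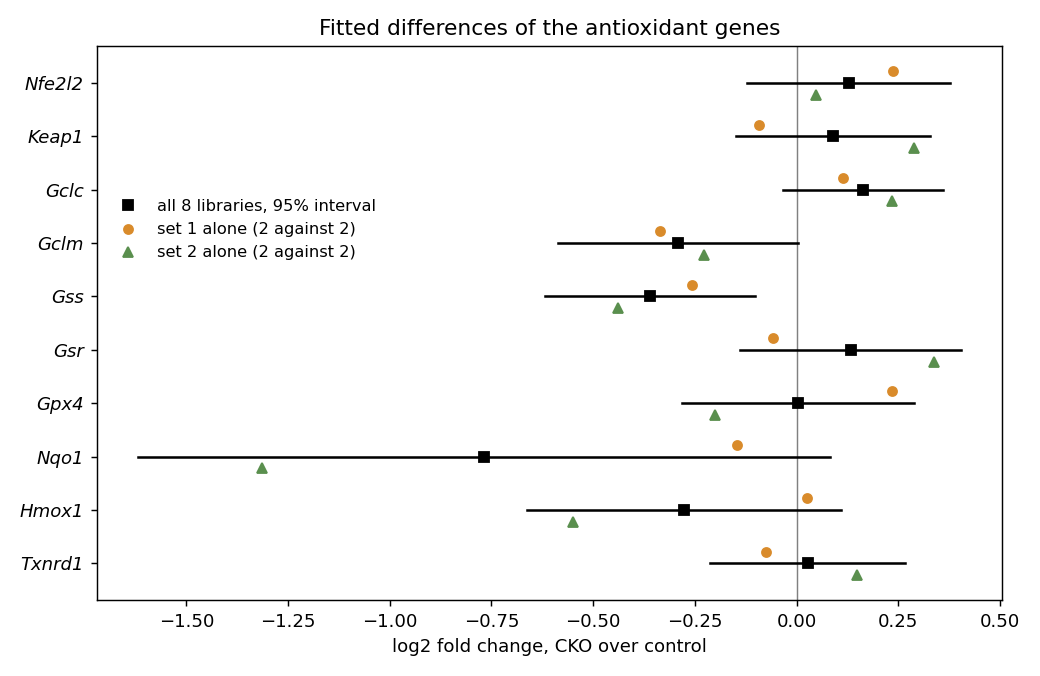
Log2 fold change, CKO over control, of each gene in all 8 libraries (squares, with 95% intervals) and in set 1 (circles) and set 2 (triangles) alone. The interval of Gss lies below 0, that of Nqo1 is the widest, and Keap1, Gsr, Gpx4, Hmox1 and Txnrd1 have set values on opposite sides of 0.

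Around these genes, 165 further genes of the redox system were read in 11 lists, of which 149 passed the filter on low counts. Of these, 6 rose (4.03%) and 8 fell (5.37%), where 6.5% of all tested genes rose and 4.01% fell. With the GC and length trends removed the calls over 14034 protein-coding genes were 1014 higher and 1258 lower. In the main test, over 16241 genes not limited to protein-coding ones, they were 1055 higher and 651 lower. The median log2 fold change of the redox genes was -0.08, beside -0.03 for all genes.

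**Figure D4:**
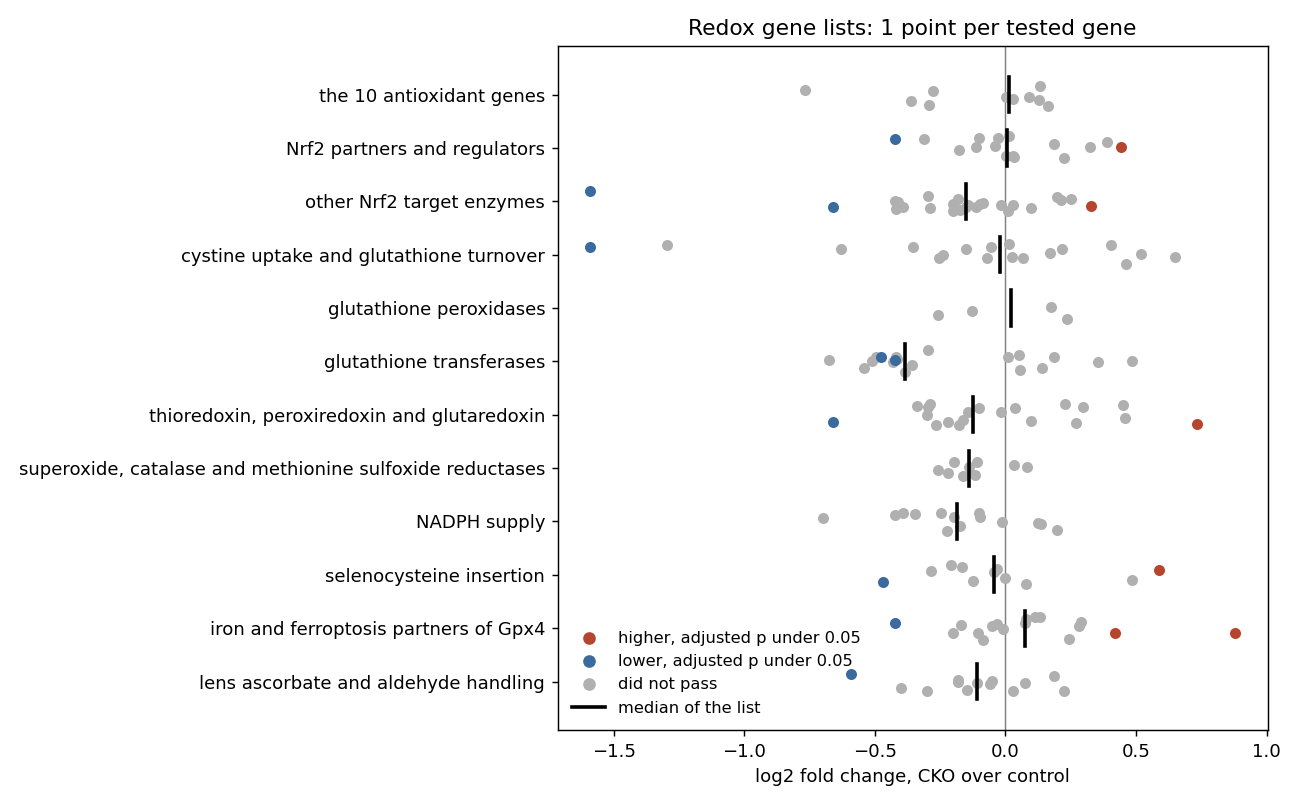
Log2 fold change, CKO over control, of every tested gene of the 10 antioxidant genes and of 11 redox lists, with red for genes that rose, blue for genes that fell, grey for the rest and a bar at the median of the list. A gene on more than 1 list appears in each. Slc7a11 lies farthest from 0, at -1.59.

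The largest change among these genes was at cystine uptake. Slc7a11, the gene of an antiporter that imports cystine in exchange for glutamate and so feeds glutathione synthesis, had 52.2, 63.0, 29.8 and 70.5 CPM in CKO replicates a to d, against 141.4, 155.1, 159.8 and 193.1 CPM in control replicates a to d. The highest CKO library, CKO d, lay far under the lowest control, control a. Slc7a11 fell by 1.59 on the log2 scale with an SE of 0.26 (adjusted p = 0.0101), a fold of 0.332. It was the 1 gene of 18 tested for cystine uptake and glutathione turnover that passed (5.56%, beside 4.01% of all genes lower). The list median was -0.02. Slc3a2, the heavy chain that partners Slc7a11, had a value of -0.35 (adjusted p = 0.108) and passed without control c (-0.46, adjusted p = 0.00877) and with the GC and length trends removed (-0.43, adjusted p = 0.0446). Chac1, which degrades glutathione, stood at 0.315, 0.806, 0.527 and 0.931 CPM in CKO replicates a to d, against 4.51, 8.29, 0.268 and 0.510 CPM in control replicates a to d. Only control a and control b were high for Chac1, and its log2 fold change of -1.30 had an adjusted p of 0.468. In separate edgeR fits it was -3.48 in set 1 (adjusted p = 0.00202) and 0.93 in set 2 (adjusted p = 0.437). The interaction of genotype and set had an adjusted p of 0.172 (edgeR quasi-likelihood). With a library left out it lay between -0.45 (without CKO a) and -2.09 (without control c) and did not pass. Atf4, a stress-response transcription factor gene with Slc7a11 and Chac1 among its known targets, had a value of -0.33 (adjusted p = 0.0737), and passed without control c (-0.40, adjusted p = 0.0172) and with the trends removed (-0.42, adjusted p = 0.0311).

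Among 25 other enzymes and proteins of the Nrf2 target set, Slc7a11 and Srxn1 fell (8%, beside 4.01% of all genes). Cbr1 rose (4%, beside 6.5% of all genes), and the list median was -0.15. Srxn1 encodes sulfiredoxin, which restores overoxidised peroxiredoxins. Its level was 6.61, 7.70, 8.60 and 10.6 CPM in CKO replicates a to d, against 13.04, 12.7, 14.2 and 12.8 CPM in control replicates a to d. The genotypes were separate, and Srxn1 fell by 0.66 on the log2 scale with an SE of 0.14 (adjusted p = 0.0162). Cbr1, a carbonyl reductase gene, rose by 0.33 (SE 0.09, adjusted p = 0.0378). Prdx1 (-0.29, adjusted p = 0.448), G6pdx (-0.10, adjusted p = 0.581), Fth1 (-0.20, adjusted p = 0.373) and Ftl1 (-0.08, adjusted p = 0.69) did not pass. Without control b the adjusted p of Srxn1 was 0.0565, and Cbr1 passed in 1 of the 8 fits that left out a library, that without control c (adjusted p up to 0.142 in the others).

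Of 16 partners and regulators of Nrf2 tested, Bach1 rose and Mafg fell (6.25% each, beside 6.5% and 4.01% of all genes), 14 did not pass, and the list median was 0.01. Bach1, which encodes a repressor that competes with Nrf2 for the same elements, had 38.3, 35.6, 46.1 and 40.4 CPM in CKO replicates a to d, against 28.3, 30.4, 30.3 and 28.9 CPM in control replicates a to d. All CKO libraries exceeded all control libraries (log2 fold change 0.44, SE 0.10, adjusted p = 0.0178). Mafg encodes a small Maf protein, the DNA-binding partner of both Nrf2 and Bach1. It had 266.7, 273.4, 309.7 and 289.8 CPM in CKO replicates a to d, against 384.3, 420.9, 335.2 and 389.6 CPM in control replicates a to d, again without overlap (log2 fold change -0.42, SE 0.11, adjusted p = 0.0347). Mafk (0.22, adjusted p = 0.429), Cul3 (-0.31, adjusted p = 0.179), the cullin of the Keap1 ligase, Sqstm1 (-0.11, adjusted p = 0.532) and Nfe2l1 (-0.04, adjusted p = 0.892), a relative of Nfe2l2, did not pass. The Bach1 call ended without CKO c, CKO d or control d (adjusted p up to 0.0886). Mafg passed in 1 of the 8 fits with a library left out, that without control c (up to 0.124 in the others), in which Cul3 also passed (-0.43, adjusted p = 0.02).

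**Figure D5:**
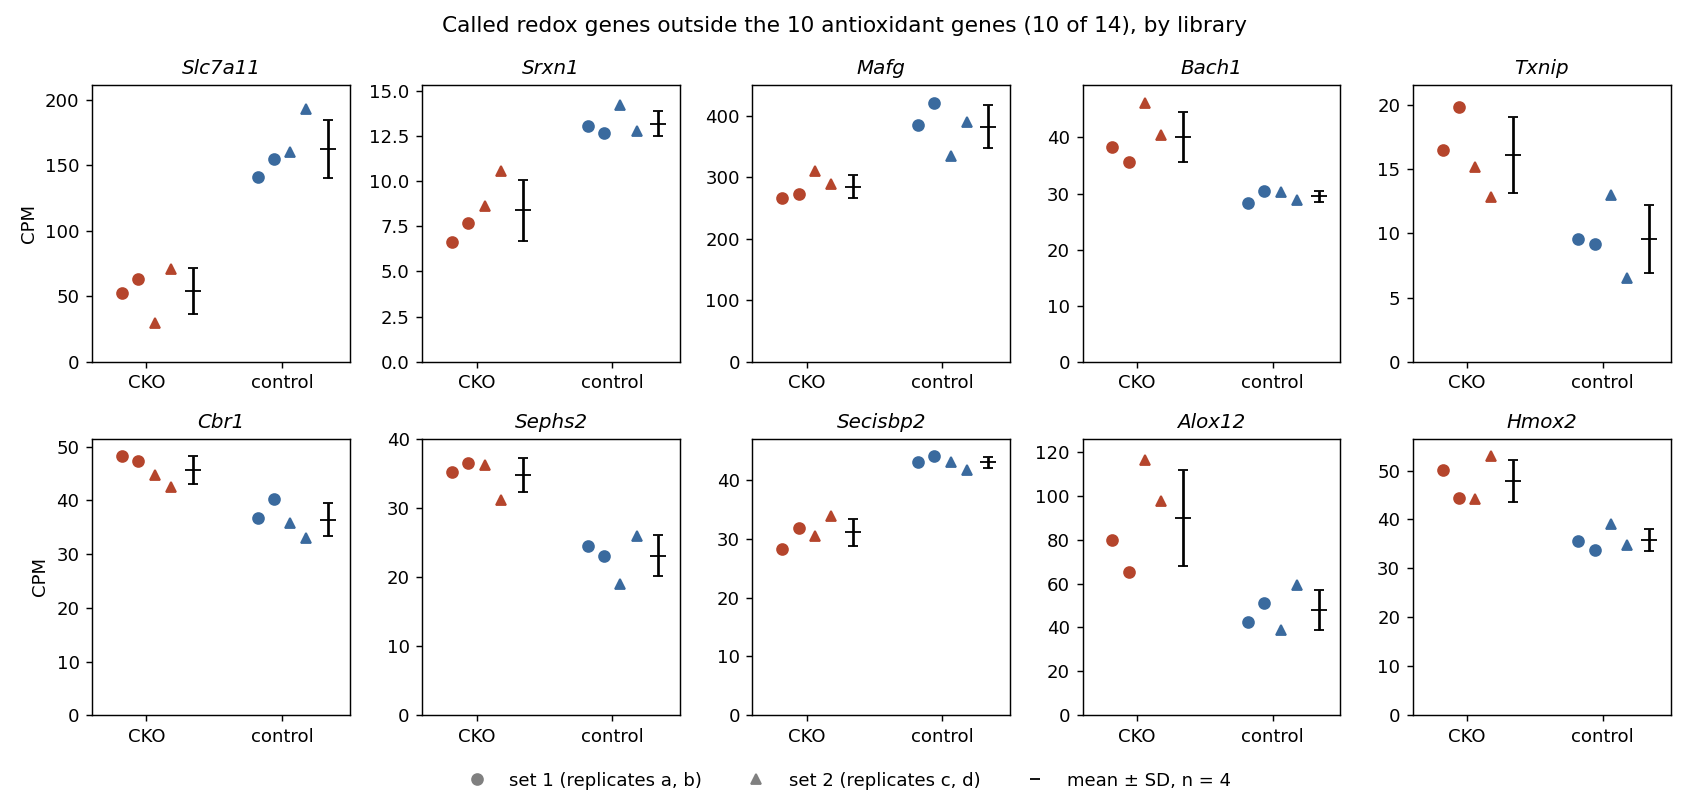
CPM in every library of 10 of the 14 redox genes that passed the test, CKO left and control right of each panel, with circles for set 1, triangles for set 2 and bars for the mean ± SD of 4 libraries. The genotypes overlap for Txnip and are separate in the other 9 panels.

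The bases before the starts of Slc7a11 and Srxn1, the called targets with the largest falls, are shown beside those of Nfe2l2, Gclm and Txnrd1, the antioxidant genes whose windows held letters of an antioxidant response element. RefSeq promoter windows of GRCm38.p6 (250 bases before to 50 after a start) matched 7 of the 10 genes by symbol: Nfe2l2, Keap1, Gclm, Gss, Gpx4, Nqo1 and Txnrd1. The letters searched were TGACNNNGC and TGAGNNNGC for the antioxidant response element and TGATGNAA for the C/EBP-ATF response element, on both strands, and these can overlap with sites of AP-1. Either antioxidant form was in the windows of 3 of these 7 genes (42.9%), beside 30.8% of all 27025 genes with a window, and TGATGNAA in those of 4.51%. Only the 250 bases before the start are printed, on the strand of the gene, with the searched letters in capitals.
Nfe2l2: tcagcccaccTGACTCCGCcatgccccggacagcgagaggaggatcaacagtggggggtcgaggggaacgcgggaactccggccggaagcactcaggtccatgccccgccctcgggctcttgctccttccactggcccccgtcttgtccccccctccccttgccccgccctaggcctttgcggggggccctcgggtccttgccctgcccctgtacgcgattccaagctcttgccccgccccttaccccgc
Gclm: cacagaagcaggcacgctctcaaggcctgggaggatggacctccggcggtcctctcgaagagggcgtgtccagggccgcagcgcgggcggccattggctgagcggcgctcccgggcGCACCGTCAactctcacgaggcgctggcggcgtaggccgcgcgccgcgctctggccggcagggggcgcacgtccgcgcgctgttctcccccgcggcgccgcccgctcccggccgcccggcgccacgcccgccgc
Txnrd1: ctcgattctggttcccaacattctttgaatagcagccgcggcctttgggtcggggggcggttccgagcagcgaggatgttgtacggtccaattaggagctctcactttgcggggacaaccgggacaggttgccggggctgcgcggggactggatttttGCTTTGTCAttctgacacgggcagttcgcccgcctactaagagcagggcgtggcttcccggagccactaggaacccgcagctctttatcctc
Srxn1: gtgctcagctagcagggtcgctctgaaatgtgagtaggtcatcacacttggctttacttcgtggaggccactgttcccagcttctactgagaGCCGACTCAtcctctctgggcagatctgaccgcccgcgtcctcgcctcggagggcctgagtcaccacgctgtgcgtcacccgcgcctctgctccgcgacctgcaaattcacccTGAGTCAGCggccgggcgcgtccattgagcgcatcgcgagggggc
Slc7a11: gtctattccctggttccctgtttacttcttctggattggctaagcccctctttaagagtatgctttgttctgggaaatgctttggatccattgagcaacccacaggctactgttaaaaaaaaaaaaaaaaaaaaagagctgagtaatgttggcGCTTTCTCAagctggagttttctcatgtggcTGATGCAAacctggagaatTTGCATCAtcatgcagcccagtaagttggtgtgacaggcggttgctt
The stretches lie at chr2:75704664-75704913 (minus strand), chr3:122245307-122245556 (plus), chr10:82858956-82859205 (plus, the second of 3 starts), chr2:152105274-152105523 (plus) and chr3:50443614-50443863 (minus). Slc7a11 held a single TGAGNNNGC match and TGATGCAA on each strand, the first at base -66 and the second at base -47 relative to the start. Srxn1 held TGAGTCAGC at base -45 and TGAGTCGGC on the opposite strand at base -158. It also held TGACCTAGC on the opposite strand at base 28, after the start and so not printed. Nfe2l2 held TGACTCCGC at base -240, Gclm held TGACGGTGC at base -134 and Txnrd1 TGACAAAGC at base -92, the last pair on the opposite strand. Genes with these letters thus included Slc7a11 and Srxn1, which fell, and Nfe2l2, Gclm and Txnrd1, which did not pass. A match of letters is not a bound site.

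None of 4 further glutathione peroxidase genes passed, where 10.5% of all genes did, and Gpx1 was at -0.13 (adjusted p = 0.578). Of 19 glutathione transferase genes, Gstm7 (-0.48, SE 0.12, adjusted p = 0.0313) and Gstp1 (-0.42, SE 0.12, adjusted p = 0.0426) fell (10.5%, beside 4.01% of all genes) and none rose, with a list median of -0.38, -0.04 in set 1 and -0.50 in set 2. All 16 lens fiber markers were also fitted below 0, and their median was -0.36 over all libraries (set 1 -0.27, set 2 -0.55). Medians were similar for lens epithelium (-0.355, set 1 -0.447, set 2 -0.235) and periocular mesenchyme and cornea markers (-0.395, 0.0137 and -0.704). The lens epithelium markers were split, with 6 of 10 fitted below 0. Of these 10, 4 fell (40%, beside 4.01% of all genes) and Gja1 rose (10%, beside 6.5% of all genes). Red cell markers were at -0.37 (0.867 and -1.46). Medians of macrophage, endothelium, retina and pigment cell markers were above 0 over all libraries, although the 1 pigment cell marker that passed, Oca2, fell. The part of any cell type in the transferase values was not tested. Gstm and Gstp genes are close copies, so the separate values of Gstm7 and Gstp1 are uncertain. Of 20 thioredoxin, peroxiredoxin and glutaredoxin genes, Txnip, which encodes an inhibitor of thioredoxin, rose and Srxn1 fell. These were 5% each, beside 6.5% and 4.01% of all genes. Txnip stood at 16.5, 19.9, 15.2 and 12.8 CPM in CKO replicates a to d, against 9.56, 9.17, 13 and 6.53 CPM in control replicates a to d, so that CKO d lay just under control c (log2 fold change 0.74, SE 0.21, adjusted p = 0.0473). Txn1 (0.10, adjusted p = 0.773), Txnrd2 (-0.30, adjusted p = 0.185) and Txnrd3 (0.30, adjusted p = 0.271) did not pass. Gstm7 and Txnip likewise passed in the fit without control c alone (adjusted p up to 0.119 and 0.148 in the others). The call for Gstp1 ended without CKO b, CKO c, CKO d, control b or control d (up to 0.149), and that for Txnip ended with upper quartile scaling (0.0567).

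None of 9 genes for superoxide dismutases, catalase and methionine sulfoxide reductases passed. Sod1 was at -0.11 (adjusted p = 0.676), Sod2 at -0.14 (adjusted p = 0.405) and Cat at -0.22 (adjusted p = 0.171). None of 14 genes of NADPH supply passed, where 10.5% of all genes did. Of 13 genes for ascorbate and aldehyde handling, Aldh1a1, which encodes an aldehyde dehydrogenase that also makes retinoic acid, fell. This was 7.69%, beside 4.01% of all genes, and the list median was -0.11. Aldh1a1 had 1059, 954.7, 701.9 and 867.8 CPM in CKO replicates a to d, against 1160, 1247, 1578 and 1406 CPM in control replicates a to d (log2 fold change -0.59, SE 0.16, adjusted p = 0.0374). Gsto1 had a value of 0.19 (adjusted p = 0.4). The Aldh1a1 call ended without CKO b, CKO c, CKO d, control b or control d (adjusted p up to 0.123).

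Gpx4 and Txnrd1 are selenoenzymes. Of 11 genes for selenocysteine insertion, Sephs2 rose and Secisbp2 fell (9.09% each, beside 6.5% and 4.01% of all genes), and 9 did not pass. Sephs2, which makes the selenium donor, had 35.2, 36.5, 36.2 and 31.2 CPM in CKO replicates a to d, against 24.4, 23.0, 18.97 and 25.97 CPM in control replicates a to d (log2 fold change 0.59, SE 0.12, adjusted p = 0.0111). Secisbp2, whose product binds the selenocysteine insertion element of selenoprotein mRNAs, had 28.3, 31.7, 30.4 and 33.8 CPM in CKO replicates a to d, against 43.1, 44.0, 43.1 and 41.7 CPM in control replicates a to d (log2 fold change -0.47, SE 0.09, adjusted p = 0.0111). The genotypes were separate for both. Of 17 genes of iron handling and lipid peroxidation around Gpx4, 14 did not pass, 11.8% rose and 5.88% fell, beside 6.5% and 4.01% of all genes. In that list Alox12, a lipoxygenase gene, rose by 0.88 (SE 0.16, adjusted p = 0.0101) and Hmox2, the constitutive heme oxygenase gene, by 0.42 (SE 0.10, adjusted p = 0.0244). Acsl4, which encodes an acyl-CoA synthetase of polyunsaturated fatty acids, fell by 0.42 (SE 0.11, adjusted p = 0.0365), and Tfrc (0.24, adjusted p = 0.496) did not pass. Slc7a11, Sephs2, Secisbp2 and Alox12 passed in all 8 fits that left out a library (adjusted p up to 0.0468). Hmox2 did not pass without CKO a, CKO d, control b or control d (up to 0.107), and Acsl4 passed only without control c (up to 0.112 in the others).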

How the data were processed

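RNA of E14.5 mouse lenses was measured in 8 libraries. The deposited table holds raw counts for each Ensembl ID in each library. Tools named in the submitters' processing notes are CASAVA, HISAT2 and featureCounts, with the mm10 build. The sources used here give no versions, annotation release or strand setting, so a gene's reads may include those of an overlapping or antisense gene. TRIzol extraction and an NEBNext Ultra kit are named in the labels' protocols. IDs were matched to GENCODE M21 for symbols, coordinates and lengths (42548 of 43432). The 884 unmatched IDs held at most 0.105% of the counts of a library and stayed in the tests.

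The test was edgeR 4.0.16 under R 4.3.3: filterByExpr (minimum count 10, minimum total 15), TMM scaling, and the robust quasi-likelihood F-test with set and genotype as terms, adjusted by Benjamini-Hochberg over 16241 genes. An adjusted p under 0.05 was called. Log2 fold changes are CKO over control, with 95% intervals from the quasi-likelihood F. Alternatives were RLE and upper quartile scaling, other filters, DESeq2 1.42.0, limma 3.58.1 (voom), no set term, the replicate letter as a block, spline trends on GC content and length removed, and each library left out. The code was tested on simulated counts. No library was counted as a repeat of another, since chi-square over its degrees of freedom was 15.3 to 102 between libraries of a genotype.

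The 10 genes, the lists and the tests were chosen with earlier results of these data known. Named genes were the 10, 30 genes given whatever their result, and up to 5 called genes in each direction of each redox list. Genes named as cell markers or for overlap with one of the 10 are outside this rule. So are Gstm1, Gstm2, Gstm4, Gstm5 and Gstm6, which were chosen after their values were seen.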

Additional observations from a re-analysis of the deposited data

Results flagged for a closer look

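Of 20 groups of 4 libraries (10 genes in 2 genotypes), 2 held a library that lay apart from the other 3 by Dixon's ratio, whose critical value is 0.829, and chance gives about 1 in 20. Gclm stood at 66.3 CPM in control d, where the nearest control library was at 45.8 CPM (ratio 0.848). Gpx4 stood at 156.6 CPM in control c, where the nearest was at 121.5 CPM (ratio 0.887). Without these libraries the log2 fold change of Gclm was -0.15 (edgeR adjusted p = 0.547) and that of Gpx4 was 0.14 (adjusted p = 0.317).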

How the results depend on the processing

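Over the 10 antioxidant genes, 162 of 180 alternative values kept their direction and their side of the threshold, 14 changed sign and 4 newly passed. The count of called genes among the 10 was 0 in the main test. It was 1 with DESeq2 (Gss), beside 2468 of 16241 genes. With the GC and length trends removed it was 1 (Gss), beside 2272 of 14034 protein-coding genes. When a library was left out it was 0 to 1. Gss passed without control a, beside 1463 of 17052 genes, and Gclm without control c, beside 2553 of 15889. The count over all genes was 1706, with 503 (without control d) to 2553 (without control c) when a library was left out, among them 651 without CKO d, 780 without control b and 846 without CKO c.

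The sign changes were all of values that did not pass. With upper quartile scaling Gpx4 was at -0.004125, and with limma voom Gsta4 was at -0.026, against 0.01. With the GC and length trends removed Keap1 was at -0.065, Gpx4 at -0.096 and Txnrd1 at -0.029, and with the replicate block beside that removal at -0.060, -0.098 and -0.020. With a library left out Gpx4 lay between -0.059 and 0.14, Txnrd1 between -0.063 and 0.088, Gsta4 between -0.10 and 0.19, Nfe2l1 between -0.17 and 0.038, Txn1 between -0.002776 and 0.28 and Sod1 between -0.21 and 0.010. The cause was not tested.

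Libraries of the same letter, a to d, deviated from their genotype means with correlations of -0.06, 0.09, -0.19 and 0.28. Only CKO d correlated best with the control library of its own letter. With so few libraries these values cannot decide whether the letters pair libraries, and the main test had no pair term. With the replicate block 665 genes were called and 0 of the 10, and with the block and the trends removed 1291. Among the 14 called redox genes Slc7a11, Sephs2 and Alox12 passed with the block alone, and the others had adjusted p up to 0.133. With the block and the trends removed Alox12 did not pass (0.83, adjusted p = 0.0601). Without the filter on low counts or without the set term Cbr1 and Acsl4 did not pass (adjusted p 0.0571 to 0.0996), and without the filter Chac1 did (-1.30, adjusted p = 0.0189). Nqo1 had the fewest counts of the 10, 18 to 104 a library, and the parts of depth and of spread between libraries in its SE were not separated.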

Other observations

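Several redox genes outside the 10 had effects of opposite sign in the sets, chosen here after their values were seen. Prdx1, a peroxiredoxin gene, had log2 fold changes of 0.22 in set 1 and -0.78 in set 2, Txn1, which encodes cytosolic thioredoxin, of 0.51 and -0.28, and Sod1 of 0.19 and -0.38. The median over thioredoxin, peroxiredoxin and glutaredoxin genes was 0.09 in set 1 and -0.20 in set 2, and that over superoxide dismutases, catalase and methionine sulfoxide reductases 0.09 and -0.32. Over all genes the medians were -0.00255 and -0.01. Markers of endothelium (medians 0.906 in set 1 and -0.625 in set 2) and of red cells (0.87 and -1.46) differed between the sets in the same direction. Those of periocular mesenchyme and cornea were at 0.01 and -0.70, those of lens fiber at -0.272 and -0.549 and those of lens epithelium at -0.447 and -0.235. Macrophage (1.22 and 0.398) and pigment cell markers (1.17 and 1.47) were above 0 in both sets, and retina markers were at -0.311 and 3.64. The part of these cells in the redox values was not tested. No gene passed the adjusted interaction test (edgeR quasi-likelihood), and 16.4% of genes had an unadjusted interaction p under 0.05.

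Among glutathione transferases, 12 of 19 fitted values lay below 0, beside 53.1% of all genes, and all 6 tested Gstm genes were among them, from -0.36 (Gstm5) to -0.50 (Gstm4). For 3 of the 6 this rests on set 2: Gstm2 was at 0.09 in set 1 and -0.81 in set 2, Gstm5 at 0.05 and -0.73, and Gstm6 at -0.0092 and -0.79. Of these Gstm7 passed, while Gstm4 had an adjusted p of 0.0646 and Gstm1 of 0.0876. The Gstm genes were chosen here after their values were seen. They lie close in sequence and can share reads, so their values are not independent.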
